A study of Mus musculus with 18 samples.

Results

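Complex I, the NADH:ubiquinone oxidoreductase of the mitochondrial inner membrane, is encoded in part by nuclear genes whose symbols begin with Nduf, and the mRNAs of these genes were followed here in mouse retina. All rows of the count files whose symbol began with Ndufa, Ndufb, Ndufc, Ndufs or Ndufv and a number were taken, together with Ndufab1, and the assembly factors (Ndufaf) were left out. This gave the 37 genes described here, out of 35006 gene names, and all 37 passed the filter on low counts that left 16183 genes for testing. Of the 37 genes, 35 encode subunits of complex I, while Ndufa4, whose product is now placed in complex IV, and Ndufa4l2, its relative, match by name only.

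Poly(A) RNA of whole retinas was sequenced from male mice in 4 groups. WT mice were C57BL/6J given plain drinking water (3 libraries), and WT + NACET mice were C57BL/6J given N-acetyl-L-cysteine ethyl ester (NACET), a cell-permeable cysteine precursor, dissolved in their water (0.33 mg/mL, a daily dose of 50 mg/kg; 6 libraries). Akita mice carried the Ins2Akita mutation on C57BL/6 (C57BL/6-Ins2Akita/J, heterozygous per the study) and received plain water (4 libraries), and Akita + NACET mice had the same genotype and the same NACET dose (5 libraries). Vehicle or NACET was given from week 4 to week 24 of age in all groups. The mutation misfolds insulin 2 and depletes pancreatic beta cells, so that Akita is a model of insulin-deficient diabetes in every tissue and not of a lesion made in the retina, and only males were used. The labels number the libraries but do not tie them to animals, so p-values measure the spread between libraries, which may be technical in part.

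Complex I takes electrons from NADH at the tip of its matrix arm, passes them through a chain of iron-sulfur clusters to ubiquinone and couples this to proton pumping in its membrane arm. The matrix arm is divided into the N module, which oxidises NADH, and the Q module, which reduces ubiquinone, and the membrane arm is built from core subunits encoded in mitochondrial DNA with many nuclear accessory subunits around them. Retina has a high demand for ATP, and photoreceptor inner segments are packed with mitochondria.

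Promoters of these genes are typically CpG-rich and carry sites for factors of mitochondrial biogenesis. RefSeq promoter windows (GRCm38.p6, 250 bases before to 50 bases after the start of the gene) were matched by symbol for 33 of the 37 genes, as 35 windows, and Ndufa2, Ndufa4l2, Ndufb9 and Ndufs1 had no entry. Letters for 8 motifs were searched on both strands. The windows of 4 genes that recur in the results are shown with every motif match in capitals. Ndufv3 was called in 4 comparisons, Ndufa10 and Ndufb4 were among the largest falls, and Ndufa8 holds the longer NRF1 motif overlapping the shorter one next to the start. The windows lie at chr17:31519865-31520164 (plus strand), chr1:92473709-92474008, chr16:37654319-37654618 and chr2:36049289-36049588 (all minus strand).
Ndufv3: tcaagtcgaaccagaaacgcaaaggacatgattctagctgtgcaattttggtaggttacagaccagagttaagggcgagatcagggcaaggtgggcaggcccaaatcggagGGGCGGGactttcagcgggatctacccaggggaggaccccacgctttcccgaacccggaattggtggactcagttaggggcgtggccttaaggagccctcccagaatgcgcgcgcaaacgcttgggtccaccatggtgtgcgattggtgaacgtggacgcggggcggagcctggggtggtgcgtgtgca
Ndufa10: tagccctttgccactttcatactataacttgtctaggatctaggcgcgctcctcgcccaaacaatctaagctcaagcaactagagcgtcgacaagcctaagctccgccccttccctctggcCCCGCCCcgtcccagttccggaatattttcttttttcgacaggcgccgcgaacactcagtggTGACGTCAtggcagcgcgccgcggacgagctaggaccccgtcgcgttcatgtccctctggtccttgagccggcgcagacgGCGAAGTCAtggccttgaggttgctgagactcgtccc
Ndufb4: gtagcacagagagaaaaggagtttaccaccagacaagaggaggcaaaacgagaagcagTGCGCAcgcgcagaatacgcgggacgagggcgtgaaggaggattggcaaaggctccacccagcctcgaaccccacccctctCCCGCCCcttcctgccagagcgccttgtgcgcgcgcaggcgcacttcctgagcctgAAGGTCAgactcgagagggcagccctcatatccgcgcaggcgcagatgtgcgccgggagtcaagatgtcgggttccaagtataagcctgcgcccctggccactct
Ndufa8: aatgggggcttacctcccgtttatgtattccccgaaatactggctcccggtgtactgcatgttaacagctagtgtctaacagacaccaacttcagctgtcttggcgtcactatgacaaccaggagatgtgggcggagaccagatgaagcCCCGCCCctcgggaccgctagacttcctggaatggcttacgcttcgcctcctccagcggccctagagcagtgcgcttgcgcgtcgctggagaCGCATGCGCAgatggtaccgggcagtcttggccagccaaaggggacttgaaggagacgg
In Ndufv3 the capitals mark the SP1-type letters GGGCGGG, 139 bases before the start. In Ndufa10 they mark, in order, GGGCGGG on the other strand, the CREB-type TGACGTCA and, after the start, TGACNNNGC, the core of the antioxidant response element, on the other strand. In Ndufb4 they mark the shorter NRF1 letters, the SP1-type letters on the other strand and the ERR-type AAGGTCA, and in Ndufa8 GGGCGGG on the other strand and CGCATGCG running into TGCGCA, with the longer motif starting 9 bases before the start.

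Over the 35 windows, TGCGCA was found in 31.4% against 7.76% of all 32851 windows in the table, and the YY1-type ATGGCGG in 25.7% against 4.05%. CGCATGCG was present in 5.7% against 1.87% and TGACGTCA in 8.6% against 1.79%. The other motifs stood at 22.9% against 12.4% for TGACNNNGC, 37.1% against 25.6% for GGGCGGG, 11.4% against 8.86% for the ETS-type CCGGAAG and 8.6% against 4.72% for AAGGTCA. Such matches describe letters in the window and are not evidence of binding. The windows of all genes were not matched to these for CpG content. ATGGCGG lay 20 to 39 bases after the start in Ndufb5, Ndufs7, Ndufa9, Ndufs6 and Ndufs4. The antioxidant-response core, the type of element through which NRF2 acts, was matched in 7 genes, Ndufa1, Ndufa7, Ndufa9, Ndufa10, Ndufa11, Ndufs5 and Ndufv2.

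The libraries held 11495596 to 17814479 gene counts after removal of ribosomal RNA genes. Rod markers were detected in full (14 of 14), and their summed level was 174260 to 259282 CPM in Akita (CPM is the count of a gene scaled to a common library size), 123217 to 167607 in WT, 152789 to 202622 in WT + NACET and 113584 to 152116 in Akita + NACET. The share of uniquely aligned reads outside exons was 9.67 to 13.3% in Akita, 14.9 to 17.1% in WT, 9.55 to 16.5% in WT + NACET and 14.3 to 19.8% in Akita + NACET. Both measures therefore separated Akita from WT and from Akita + NACET without overlap. Other lists moved too. Summed amacrine markers were 209 to 305 CPM in Akita, below the 338 to 468 in WT and the 322 to 379 in Akita + NACET. Cone markers were 3170 to 4571 CPM in Akita and 2449 to 3007 in Akita + NACET, and red cell markers 12 to 34 CPM in Akita and 36 to 97 in Akita + NACET, again without overlap. In WT cone markers were 3066 to 3848 CPM and red cell markers 13 to 28, so Akita + NACET stood apart from WT too. Pigment epithelium markers were 142 to 525 CPM in WT, 320 to 1386 in WT + NACET, 57 to 211 in Akita and 87 to 657 in Akita + NACET. Akita + NACET was also below WT + NACET without overlap in the sums of rod, cone, Mueller glia and microglia markers. Lens markers reached 23890 CPM at most in WT + NACET, 2847 in Akita, 1258 in Akita + NACET and 19 in WT. In bulk retina, fewer cells of a type and less RNA per cell cannot be told apart.

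Complex I mRNAs were abundant. The median of the 37 genes' mean levels lay at the 92.6th percentile of all genes tested, with CPM taken on library sizes scaled by TMM, a correction for composition. Compared per length, as CPM per kb of the median coding transcript, the 35 subunits had a median of 166, and 21 of 35 were within 2-fold of it. The distance from the highest subunit, Ndufb8, to the lowest, Ndufs3, was 45.2-fold.

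Among the core subunits, the level per kb was 186 for Ndufv1, 182 for Ndufv2, 166 for Ndufs7, 148 for Ndufs8, 50.0 for Ndufs1 and 22.5 for Ndufs3. Accessory subunits of the N module stood at 348 for Ndufa2, 338 for Ndufa7, 251 for Ndufv3, 237 for Ndufa6, 116 for Ndufa12, 74.5 for Ndufs6 and 40.8 for Ndufs4. In the Q module and proximal membrane arm the values per kb were 263 for Ndufc2, 250 for Ndufa1, 224 for Ndufa3, 214 for Ndufa5, 148 for Ndufa8, 138 for Ndufa10, 129 for Ndufc1, 122 for Ndufa13, 99.1 for Ndufa9 and 46.5 for Ndufs5. Core genes thus spanned 22.5 to 186, and these accessory genes 40.8 to 348. Distal-arm accessory genes held the highest values per kb, with 1016 for Ndufb8, 400 for Ndufb10, 359 for Ndufb9, 294 for Ndufb5, 268 for Ndufb7, 236 for Ndufb11 and 194 for Ndufb6. Lower in the same arm were Ndufb3 at 97.2, Ndufb2 at 64.1, Ndufab1 at 42.1, Ndufa11 at 36.2 and Ndufb4 at 31.7. Of the genes matched by name only, Ndufa4 was the highest of all at 1483 and Ndufa4l2 the lowest at 2.28, from 10 to 57 counts per library. With all annotated exons as the length, Ndufb8 moved from rank 2 to 9 and Ndufb7 from 8 to 30, so the order depends on the annotation.

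**Figure D1:**
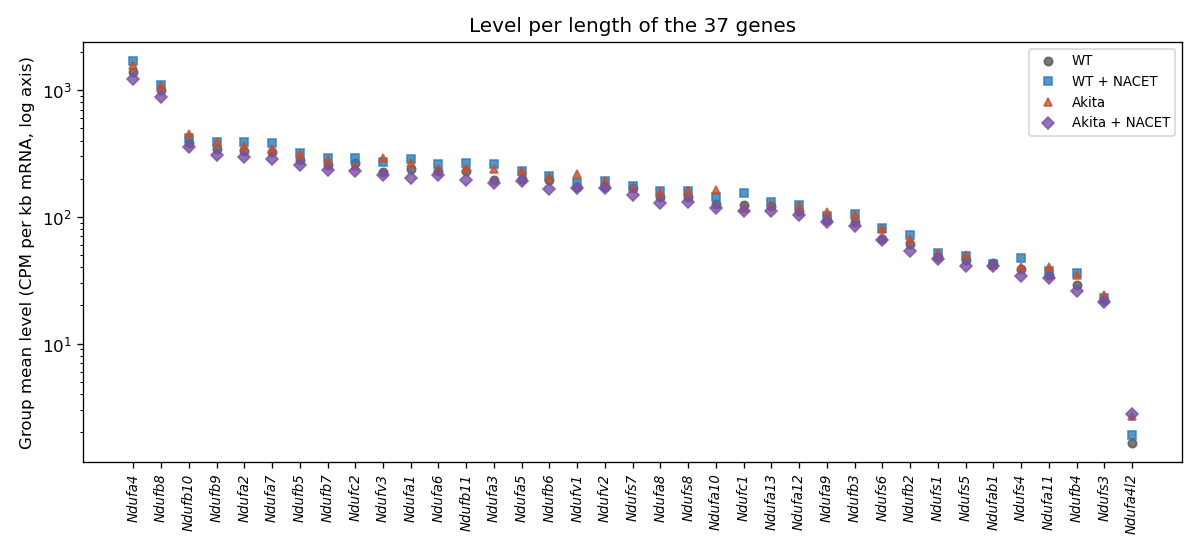
Group mean level of each of the 37 genes in CPM per kb of the median coding transcript, on a log axis, with 1 symbol per group. The 4 groups follow nearly the same order from Ndufa4 at 1483 to Ndufa4l2 at 2.28, and for most genes the Akita + NACET symbol is the lowest.

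The order was nearly the same in each group, with ranks 1 to 6 held by the same genes throughout. Reads on exons shared with a neighbouring gene on the other strand could not be assigned, since the kit and the counting ignored strand, which touches 39.0% of the exon bases of Ndufb6 (shared with 2010003O02Rik), 30.2% of Ndufa13 (Tssk6) and 12.9% of Ndufb11 (Rbm10), and at most 7.9% in 6 other genes.

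The summed level of the 35 subunits was 5137, 4970 and 5353 CPM in the WT libraries. It was 5719, 5638, 5952 and 5530 in Akita, and 5046, 4595, 5418, 4660 and 3829 in Akita + NACET. WT + NACET ranged from 5214 over a median of 5781 to 6363. All 4 Akita libraries were thus above all WT and all Akita + NACET libraries, while WT + NACET overlapped WT. Akita averaged 5710 ± 179 (SD, n = 4), against 5153 ± 192 (SD, n = 3) for WT, and Akita + NACET averaged 4710 ± 593 (SD, n = 5), against 5805 ± 510 (SD, n = 6) for WT + NACET. Scaled by the plain gene total instead, the means were 5247 for Akita, 5421 for WT, 4961 for Akita + NACET and 5713 for WT + NACET. The Akita mean thus came out below the WT mean. On that scale the Akita libraries were at 5406, 5465, 5676 and 4439 CPM, and the WT libraries at 5537, 5408 and 5318. These groups overlapped, and Akita 4 was the lowest of their libraries.

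**Figure D2:**
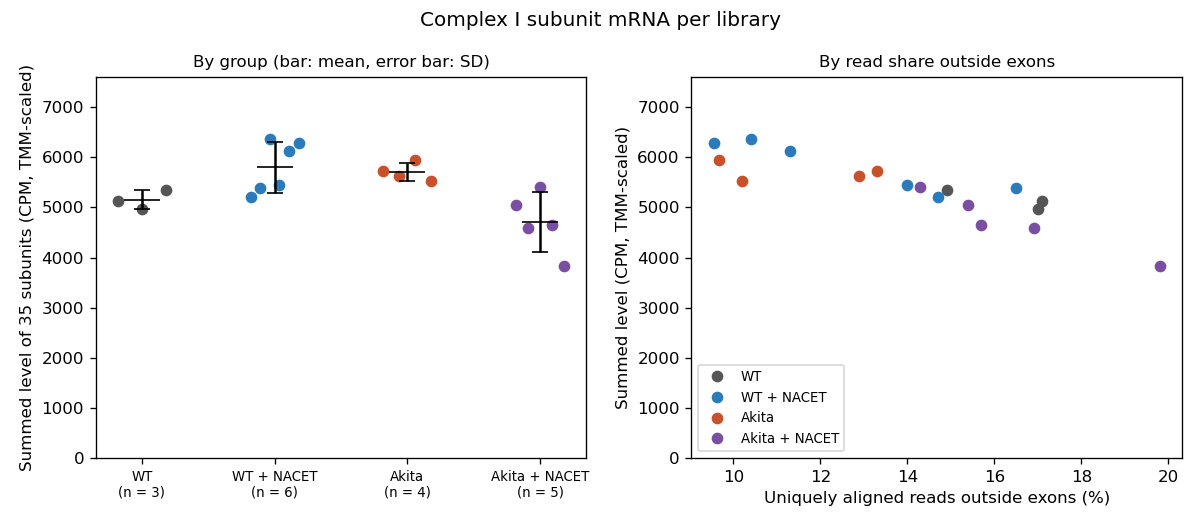
Left, summed level of the 35 complex I subunits (TMM-scaled CPM) in each library by group, with the mean and SD. Right, the same values against the percentage of uniquely aligned reads outside exons, where Akita + NACET 5 lies lowest (3829 CPM) at the highest share (19.8%). With plain library totals the Akita mean falls below the WT mean, but the libraries of these groups overlap, with Akita 4 lowest among them at 4439 CPM.

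Libraries within a group also differed together. The 3 WT + NACET libraries with 9.55 to 11.3% of reads outside exons had summed levels of 6118 to 6363 CPM, and the other 3, with 14.0 to 16.5%, had 5214 to 5444 CPM. Akita + NACET 5 had the highest share of reads outside exons, 19.8%, the lowest rod marker sum and the lowest level of 33 of the 37 genes. WT + NACET 3 and WT + NACET 6 held the highest level of 13 and 12 genes. The part of the outside-exon share and of cell content in the group differences was not tested beyond the fit with the share as a covariate that is given beside each comparison.

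Ndufv1 (chr19:4007497-4012806, minus strand, mm9, the build of the files), which binds FMN and accepts electrons from NADH, measured 248, 240 and 259 CPM in WT, 248 to 283 (median 263) in WT + NACET, 295, 283, 318 and 349 in Akita and 283, 231, 268, 242 and 197 in Akita + NACET. Akita was above WT and met both NACET groups at 283.

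Ndufv2 (chr17:66428135-66450899, minus strand), the iron-sulfur partner of Ndufv1, measured 277, 242 and 275 CPM in WT, 267 to 325 (median 293) in WT + NACET, 283, 292, 315 and 289 in Akita and 287, 250, 292, 264 and 204 in Akita + NACET. Akita stood above WT and overlapped both NACET groups. Ndufs1 (chr1:63190170-63223396, minus strand), the largest subunit and carrier of several iron-sulfur clusters, measured 137, 129 and 140 CPM in WT, 136 to 156 (median 144) in WT + NACET, 139, 145, 147 and 147 in Akita and 136, 137, 140, 124 and 112 in Akita + NACET. Its groups overlapped in each pair.

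Ndufs3 (chr2:90734791-90744984, minus strand), an early scaffold of the Q module, was among the scarcest mRNAs, with 22.5, 23.2 and 22.9 CPM in WT, 21.0 to 26.3 (median 23.5) in WT + NACET, 23.9, 23.7, 29.2 and 23.9 in Akita and 23.3, 24.5, 23.7, 21.4 and 18.9 in Akita + NACET. Akita was above WT by a margin of 23.7 against 23.2, and 1 Akita library stood far above the others. Ndufs7 (chr10:79711866-79719539, plus strand), which holds the last iron-sulfur cluster before ubiquinone, measured 144, 150 and 148 CPM in WT, 141 to 169 (median 151) in WT + NACET, 157, 155, 150 and 130 in Akita and 136, 126, 149, 132 and 104 in Akita + NACET. Here Akita and WT overlapped. Ndufs8 (chr19:3908870-3912717, minus strand), another iron-sulfur subunit of the Q module, measured 135, 128 and 149 CPM in WT, 141 to 167 (median 152) in WT + NACET, 152, 150, 165 and 143 in Akita and 133, 121, 155, 129 and 89.5 in Akita + NACET. All pairs of groups overlapped.

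Ndufv3 (chr17:31657060-31668266, plus strand), a small accessory subunit of the N module with tissue-specific isoforms, measured 136, 157 and 140 CPM in WT, 153 to 200 (median 169) in WT + NACET, 197, 179, 180 and 187 in Akita and 147, 136, 153, 140 and 115 in Akita + NACET. The lowest Akita value, 179, was above every WT and Akita + NACET value. Ndufa10 (chr1:94335587-94370437, minus strand), an accessory subunit of the proximal membrane arm related to nucleoside kinases, measured 252, 237 and 275 CPM in WT, 267 to 330 (median 284) in WT + NACET, 325, 310, 286 and 392 in Akita and 271, 240, 266, 233 and 184 in Akita + NACET. Akita again did not overlap WT or Akita + NACET.

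Ndufa3 (chr7:3568975-3571765, plus strand), a small membrane-arm subunit, measured 70.0, 70.3 and 64.9 CPM in WT, 63.0 to 127 (median 89.4) in WT + NACET, 90.8, 75.0, 94.6 and 71.3 in Akita and 63.9, 63.8, 71.2, 59.2 and 66.2 in Akita + NACET. Akita was above Akita + NACET only just, 71.3 against 71.2, and WT + NACET reached from below all Akita to above all other libraries. Ndufb4 (chr16:37647256-37654539, minus strand), a distal-arm subunit of low abundance, measured 31.2, 23.6 and 29.4 CPM in WT, 28.8 to 41.3 (median 35.6) in WT + NACET, 35.3, 35.4, 35.0 and 29.5 in Akita and 28.5, 24.5, 28.8, 26.4 and 17.8 in Akita + NACET. Its Akita libraries were all above Akita + NACET, though 29.5 was close to 28.8.

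**Figure D3:**
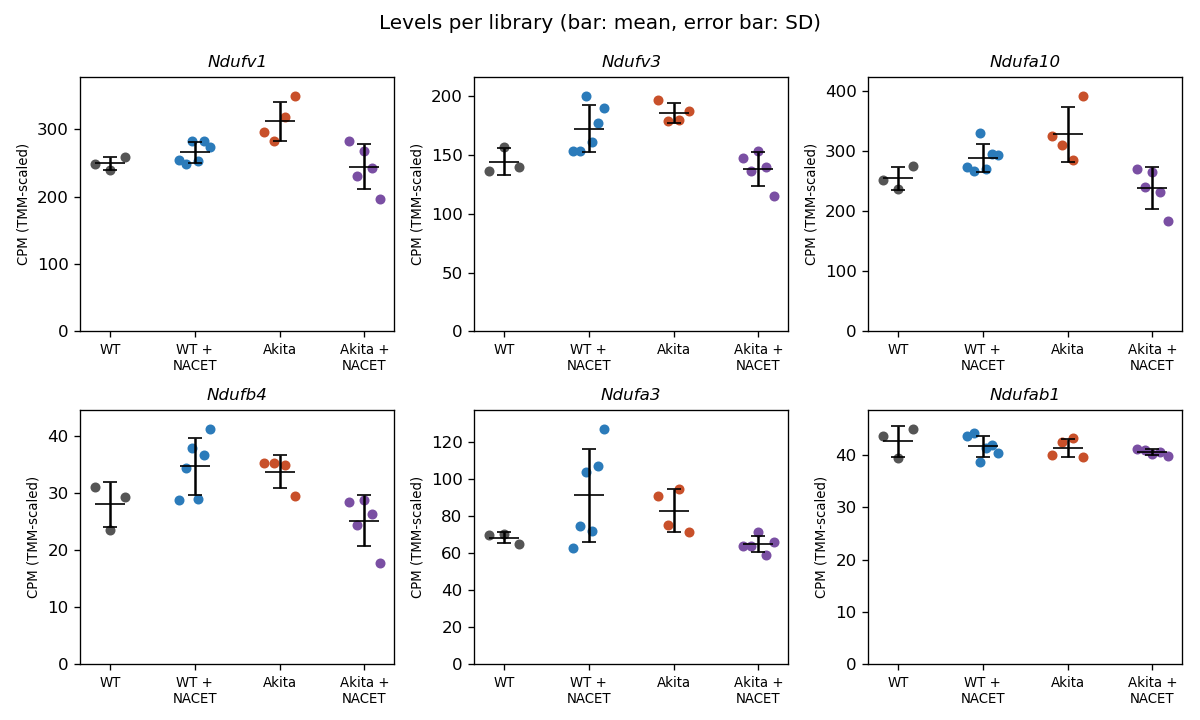
TMM-scaled CPM per library for Ndufv1, Ndufv3, Ndufa10, Ndufb4, Ndufa3 and Ndufab1 in the 4 groups, with the mean and SD. The Akita points of Ndufv3 (179 to 197) lie above all WT and Akita + NACET points, Akita + NACET 5 is the lowest point for every panel but Ndufa3 and Ndufab1, and the Ndufab1 points stay within 38.7 to 44.9.

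Ndufab1, chosen after its values were seen, encodes the mitochondrial acyl carrier protein, which also serves fatty acid synthesis. It stayed within 38.7 to 44.9 CPM over all 18 libraries, with group means of 42.6 for WT, 41.6 for WT + NACET, 41.3 for Akita and 40.5 for Akita + NACET. Its coefficient of variation within groups, 4.51% at the median, was the smallest of the 37 genes, and its groups overlapped throughout.

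The comparison of Akita with WT asked what differs with the diabetic genotype in untreated retinas. Ndufv3 rose, by 0.36 ± 0.11 (log2 fold change ± SE, adjusted p = 0.0451, edgeR's quasi-likelihood test with Benjamini-Hochberg adjustment over all 16183 genes), and it was the only one of the 37 genes called, at an adjusted p of at most 0.05. The next were Ndufv1 at 0.32 ± 0.11 (adjusted p = 0.0692) and Ndufa10 at 0.37 ± 0.13 (adjusted p = 0.0732). Over all genes 3.96% were called higher. The libraries of 14 of the 37 genes did not overlap, all higher in Akita, where 11.2% of all genes showed this. An unadjusted p under 0.05 was reached by 3 of the 37 genes, against 27.0% of all genes.

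The median log2 fold change of the 37 genes in Akita was 0.14 against -0.01 for all genes, and 34 of 37 were above 0, but with plain library totals in place of TMM the median was -0.05 against -0.21 for all genes, and 11 of 37 were above 0. By role the medians were 0.14 for the core genes, 0.13 for the N module, 0.14 for the Q module and proximal arm and 0.15 for the distal arm. Ndufc1, Ndufc2 and Ndufab1 were the 3 genes below 0, at -0.06 ± 0.12, -0.08 ± 0.12 and -0.04 ± 0.078. The Ndufv3 call was lost in 11 of 18 fits that each left out 1 library (any Akita, any WT, Akita + NACET 2 or 4, WT + NACET 4 or 5), and 3 genes were called without Akita + NACET 5. Calls over all genes, in either direction, numbered 1237 in the main fit, 0 without WT 1 or WT 2 and 1612 without Akita + NACET 5. With the outside-exon share as covariate edgeR called 0 of the 37 genes and 0 of all 16183. Of the 37, 2 had an unadjusted p under 0.05, the median was -0.09, and Ndufv3 was at 0.14 (adjusted p = 0.582). The outside-exon share did not overlap between Akita and WT, so it and the genotype cannot be told apart here.

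The comparison of Akita + NACET with Akita asked what differs with NACET in diabetic retinas. The mRNAs of 9 genes fell and none rose, against 5.14% of all genes that fell. Among the 6 core subunits Ndufv1 fell, by 0.35 on the log2 scale (SE 0.095, adjusted p = 0.0304). Ndufv3 of the N module fell by 0.43 (SE 0.094, adjusted p = 0.0203) and Ndufa10 of the proximal arm by 0.46 (SE 0.11, adjusted p = 0.0210), the latter together with Ndufa8. In the distal arm Ndufb4 fell by 0.43 (SE 0.13, adjusted p = 0.0486), and Ndufb10, Ndufb11 and Ndufb2 fell by 0.35, 0.30 and 0.30. Ndufa4 of complex IV fell by 0.37 (SE 0.11, adjusted p = 0.0450).

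The median log2 fold change with NACET in Akita was -0.28 over the 37 genes against -0.0032 over all genes, and 36 of 37 were below 0 against 50.4% of all genes. Only Ndufa4l2 was above 0, at 0.03 ± 0.36. Medians by role were -0.19 for the core, -0.24 for the N module, -0.28 for the Q module and proximal arm and -0.30 for the distal arm. For 11 genes the libraries did not overlap, where 7.43% of all genes were lower without overlap. Genes well below 0 that were not called included Ndufa1 at -0.38 ± 0.12 (adjusted p = 0.0543) and Ndufb6 at -0.32 ± 0.10 (adjusted p = 0.0505), and the nearest to 0 among the 35 subunits was Ndufab1 at -0.03 ± 0.069.

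The number of calls with NACET in Akita rested on single libraries. It was 0 without Akita 4 and 0 without Akita + NACET 5, the library with the highest outside-exon share, but 20 without Akita + NACET 3. It was 2 without Akita + NACET 2, Akita + NACET 4 or Akita 3, 3 without Akita 1 or WT 3, and 5 without Akita 2, WT 1 or WT + NACET 2. Calls over all genes, in either direction, fell too, from 1562 in the main fit to 1 without Akita 4 and 101 without Akita + NACET 5. They numbered 1754 without Akita + NACET 3 and 425 to 1511 without the others named. The median over the 37 genes stayed between -0.34 and -0.21 in these fits. With the outside-exon share as covariate edgeR called 0 of the 37 genes and 0 of all 16183. Of the 37, 1 had an unadjusted p under 0.05, against 29 in the main fit, where 29.0% of all genes had one. With the covariate the median was -0.04, and Ndufv3 was at -0.20 (adjusted p = 0.628). With plain library totals Ndufa10 alone of the 37 was called, while 2550 of all genes were, and the median was -0.09 against 0.20 for all genes. Since the outside-exon share did not overlap between Akita and Akita + NACET, it and the treatment cannot be told apart here.

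In WT, where the same question is put to normoglycemic retinas, NACET gave no call among the 37 genes (lowest adjusted p = 0.133), while 1.48% of all genes were called. DESeq2 called 0 of them too, and 12 of 37 had an unadjusted p under 0.05, as had 19.5% of all genes. The median was 0.18 against -0.01 for all genes, with 36 of 37 above 0, and 0.08 against -0.11 with plain library totals. The highest values were 0.42 ± 0.17 for Ndufa3 (adjusted p = 0.186), 0.32 ± 0.11 for Ndufc1 (adjusted p = 0.133) and 0.31 ± 0.14 for Ndufb4 (adjusted p = 0.243). Ndufab1 alone was below 0, at -0.03 ± 0.072. For 3 genes, Ndufa7, Ndufb2 and Ndufb3, all WT + NACET libraries were above all WT libraries, against 6.29% of all genes. With the outside-exon share as covariate the median was -0.00053.

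The difference between the NACET responses of the genotypes was tested as an interaction, the log2 change in Akita minus that in WT. It was called below 0 for 21 of the 37 genes and above 0 for none, against 10.2% of all genes called below 0. The largest were Ndufa3 at -0.77 ± 0.23 (adjusted p = 0.0266), Ndufb4 at -0.73 ± 0.20 (adjusted p = 0.0153) and Ndufv3 at -0.68 ± 0.14 (adjusted p = 0.00388). Of the 6 core subunits, Ndufv1 (-0.44 ± 0.14) was called. Of the accessory genes 6 of 7 in the N module, 5 of 10 in the Q module and proximal arm and 8 of 12 in the distal arm were called. Ndufs4, which the N module needs for stable assembly, was at -0.53 ± 0.15 (adjusted p = 0.0232).

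The interaction had a median of -0.45 over the 37 genes against 0.0042 over all genes, and 36 of 37 were below 0. Ndufab1 was the exception at 0.0045 ± 0.100. In the main fit 31 of the 37 genes had an unadjusted p under 0.05, against 35.6% of all genes. The count of calls was 7 without WT 2 and 9 without WT 1, and 14 to 26 without any other library. It was 0 with the outside-exon share as covariate (median -0.05, 0 genes with an unadjusted p under 0.05), 10 with a trend on transcript length removed and 2 with plain library totals (median -0.15 against 0.30 for all genes). Calls over all genes, in either direction, numbered 3289 in the main fit, 1730 without WT 2 and 1699 without WT 1. They numbered 17 with the covariate, 3049 with the length trend removed and 4437 with plain library totals. The median coding transcript of the 37 genes is 861 bases against 2196 for all genes tested, and 34 of 37 are below that median.

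**Figure D4:**
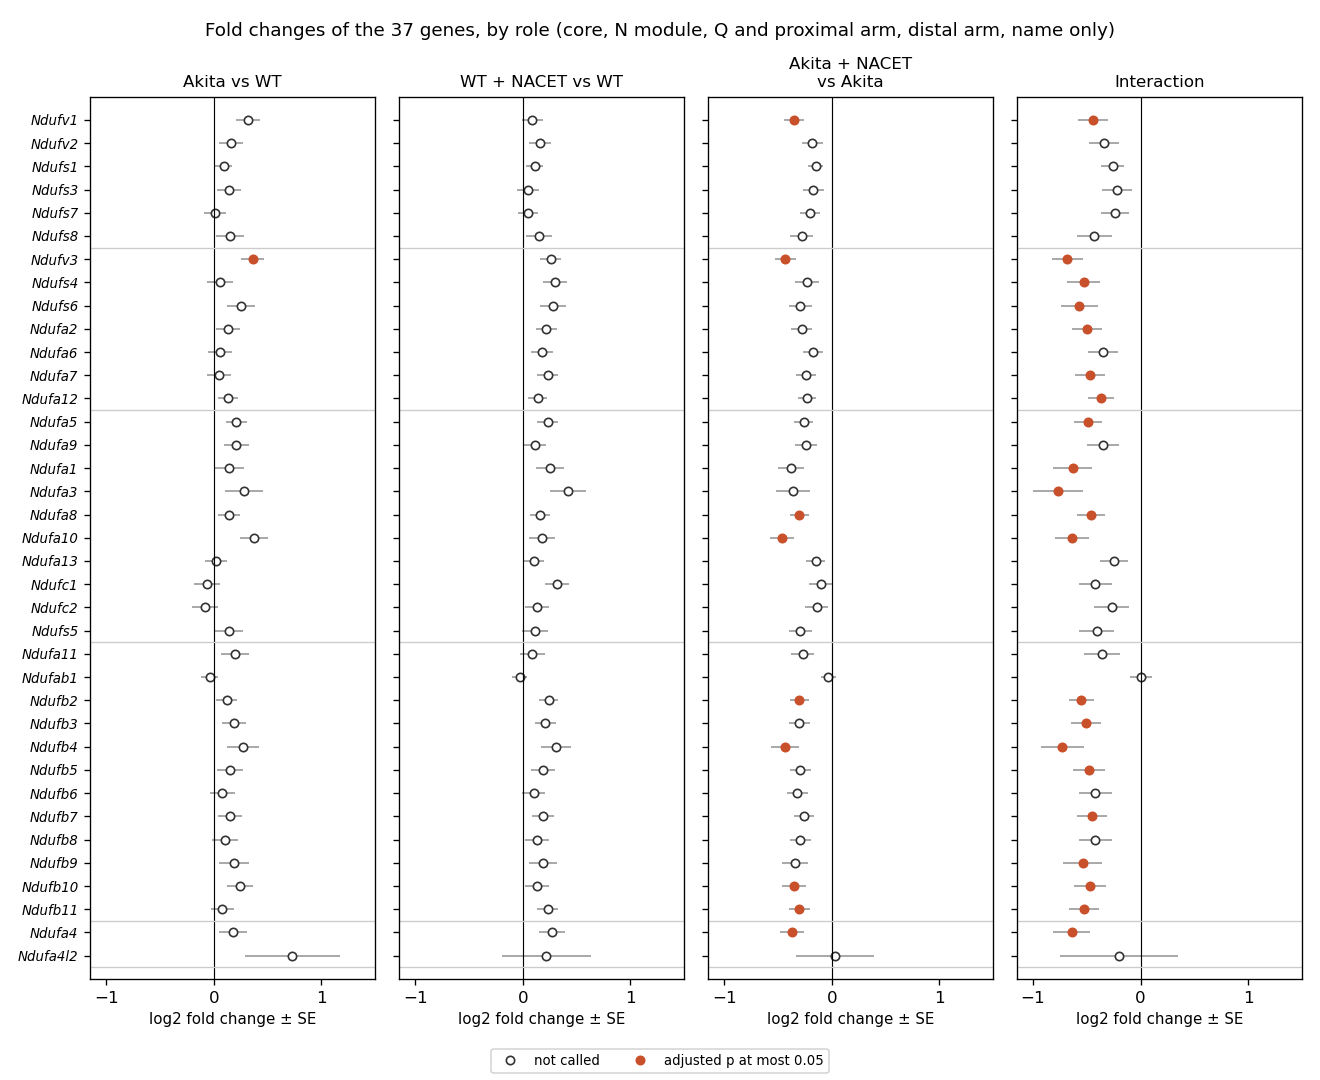
Log2 fold change ± SE of the 37 genes in Akita vs WT, WT + NACET vs WT, Akita + NACET vs Akita and the interaction, with genes ordered by role and filled points called at an adjusted p of at most 0.05. Filled points number 1, 0, 9 and 21, and 36 of 37 points lie below 0 in the last 2 panels; with plain library totals the median of the first panel changes sign.

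Under treatment, Akita + NACET was lower than WT + NACET for 23 of the 37 genes and higher for none, against 7.26% of all genes called lower. These included all 7 accessory genes of the N module, 9 of 12 in the distal arm, 6 of 10 in the Q module and proximal arm, and Ndufa4, and none of the 6 core genes. Ndufb2 fell by 0.43 (SE 0.077, adjusted p = 0.00223), Ndufb11 by 0.45 (SE 0.085, adjusted p = 0.00309) and Ndufc1 by 0.49 (SE 0.096, adjusted p = 0.00406). The median was -0.32 against -0.00015 for all genes, and 8 genes did not overlap, where 5.01% of all genes were lower without overlap. The count was 9 without Akita + NACET 5, 10 without WT + NACET 3, 12 without Akita + NACET 4, WT + NACET 5 or WT + NACET 6, and 14 without Akita + NACET 2. It was 0 with the outside-exon share as covariate and 10 with plain library totals or with the length trend removed. With the covariate 9 of the 37 genes had an unadjusted p under 0.05. In the main fit 31 had one, against 31.1% of all genes. Calls over all genes, in either direction, numbered 2148 in the main fit, 860 without Akita + NACET 5, 1124 without WT + NACET 3 and 1266 to 1547 without the others named. They numbered 194 with the covariate, 2652 with plain library totals and 1653 with the length trend removed.

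Against untreated WT, Akita + NACET gave no call among the 37 genes, and 0.00618% of all genes were called. DESeq2 called 0 of them, and 2 genes, Ndufb11 at -0.22 ± 0.10 and Ndufb6 at -0.24 ± 0.11, had an unadjusted p under 0.05 in edgeR, as had 4.63% of all genes. The median was -0.13 against -0.01, with 36 of 37 below 0 against 53.3% of all genes. None of the 37 was without overlap, and that share was not counted over all genes for this pair. With the outside-exon share as covariate the median stayed at -0.13, with 36 of 37 below 0, and 10 of the 37 genes had an unadjusted p under 0.05, with 0 called. Over all genes 1 was called in that fit, and the share with an unadjusted p under 0.05 was not counted. Median SE in this comparison was 0.11, so that a difference of the median's size was not detectable for a single gene. This comparison shares its libraries with those above, and the values stand side by side without a test between them.

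Ndufa4l2, a target of hypoxia signalling, was at 2.8, 1.36 and 0.602 CPM in WT, 0.614 to 2.84 in WT + NACET, 2.32 to 2.9 in Akita and 2.23 to 3.72 in Akita + NACET. At these counts its folds had SEs of 0.33 to 0.55, and none was called.

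The mitochondrially encoded subunits form the proton-pumping core of the membrane arm. Of 7, 6 were tested, and edgeR called 0 in Akita vs WT, with NACET in Akita or with NACET in WT. For mt-Nd4 the interaction was called, at -0.51 ± 0.15 (adjusted p = 0.0222), though not without WT 1 or WT 2, and at -0.22 (adjusted p = 0.249) with plain library totals. Its mean was 1164 ± 79.0 CPM (SD, n = 4) for Akita and 1015 ± 83.0 (SD, n = 5) for Akita + NACET, beside 1041 ± 140 (SD, n = 3) for WT and 1290 ± 133 (SD, n = 6) for WT + NACET. The list's median with NACET in Akita was -0.10, against -0.28 for the nuclear genes, and with plain library totals it was 0.09. In Akita + NACET vs WT + NACET mt-Nd4 fell by 0.35 (SE 0.092, adjusted p = 0.0188), as did mt-Nd2 (SE 0.10, adjusted p = 0.0315) and the scarce mt-Nd3 by 0.85 (SE 0.28, adjusted p = 0.0478), with a list median of -0.30. None of these 3 was called without Akita + NACET 2 or Akita + NACET 5 or with plain library totals, and 1 gene was called without Akita + NACET 4, WT + NACET 3 or WT + NACET 6.

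Assembly factors insert subunits without staying in the enzyme. Of 21 listed, 15 were in the files and tested, with medians of 0.0012 in Akita vs WT and -0.11 with NACET in Akita. A single one was called in the latter, Aifm1, which works with the import protein Chchd4 and fell by 0.29 (SE 0.074, adjusted p = 0.0250), from 47.4 ± 2.05 CPM (SD, n = 4) to 38.8 ± 1.97 (SD, n = 5). That call was lost without Akita 3, Akita 4, Akita + NACET 2 or Akita + NACET 5, and with plain library totals Aifm1 was at -0.08 (adjusted p = 0.474) and the list's median at 0.09. No assembly factor was called in the interaction. In Akita + NACET vs WT + NACET 4 were called lower, Acad9, Ndufaf3, Lyrm2 and Tmem70, at -0.32 to -0.20. All 4 calls were lost without Akita + NACET 1, 2 or 5, without WT + NACET 3, 5 or 6 and with plain library totals, and 1 or 2 factors were called without Akita + NACET 4 or WT + NACET 1 or 4.

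Of 16 regulators of mitochondrial biogenesis, Gabpb1, the partner of the ETS factor Gabpa, rose in Akita vs WT by 0.43 ± 0.11 (adjusted p = 0.0263), a call lost without Akita 4, WT 1 or WT 2 and with plain library totals. Pprc1, a coactivator of the PGC-1 family, rose with NACET in Akita by 0.59 ± 0.14 (adjusted p = 0.0207), a call lost without Akita 4 or Akita + NACET 5, and its interaction was 0.99 ± 0.20 (adjusted p = 0.00366). Pprc1 averaged 11.8 ± 0.475 CPM (SD, n = 4) for Akita and 17.9 ± 2.34 (SD, n = 5) for Akita + NACET, beside 15.6 ± 1.66 (SD, n = 3) for WT and 11.8 ± 2.30 (SD, n = 6) for WT + NACET. Its fold changes had the opposite sign to those of the subunits called in both comparisons. The remaining regulators, Ppargc1a, Nrf1, Esrra and Tfam among them, were not called in these 4 comparisons. In Akita + NACET vs WT + NACET Pprc1 was higher by 0.59 ± 0.12 (adjusted p = 0.00522), Yy1 by 0.36 ± 0.11 (adjusted p = 0.0330) and the deacetylase gene Sirt1 by 0.39 ± 0.12 (adjusted p = 0.0418). Of the 3, only Pprc1 kept its call in each of the 18 fits that left out 1 library, and all 3 were called with plain library totals.

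The nuclear subunits of complexes II to V were set beside those of complex I. Of 41 tested, 12 fell with NACET in Akita and none rose, with a median of -0.29, beside -0.28 for complex I. Those with the smallest p were Uqcrb of complex III, which fell by 0.47 (SE 0.11, adjusted p = 0.0203), and Atp5g3 and Atp5b of ATP synthase, which both fell by 0.49 (adjusted p = 0.0216 and 0.0250). In the interaction 28 of 41 were called below 0 (median -0.49), with 11 without WT 1, 12 without WT 2 and 18 without Akita 1 or WT + NACET 3. In Akita vs WT Cox7a1 alone was called, from a mean of 5.62 CPM to 11.3 CPM (adjusted p = 0.0165), and not without WT 1 or WT 2. The number that fell with NACET in Akita was 0 without Akita 4, 1 without Akita + NACET 2 or Akita + NACET 5, 3 without Akita 1 or Akita + NACET 4, 4 without Akita 3, 5 without WT 3 and 23 without Akita + NACET 3. With plain library totals 2 fell with NACET in Akita, Uqcrb and Atp5b, and 1 rose (median -0.10), and 2 were below 0 in the interaction (median -0.20). In Akita + NACET vs WT + NACET 25 were lower and 1 higher (median -0.34), and 11 were lower with plain library totals. That count was 10 without Akita + NACET 5, 12 without Akita + NACET 4 or WT + NACET 3, and 14 to 16 without Akita + NACET 2 or WT + NACET 5 or 6. With the outside-exon share as covariate no gene of these lists was called in any comparison, and at most 194 of all 16183 genes were called in a comparison.

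Cytosolic ribosomal protein genes, which also have short transcripts, had medians of 0.09 in Akita vs WT, -0.23 with NACET in Akita and 0.15 with NACET in WT. In Akita vs WT 1 was called, Rpl24, which was lower. It was not called without Akita 4, WT 1 or WT 2, and it was at -0.61 (adjusted p = 0.0148) with plain library totals. Of 70, 1 fell (Rplp0) and 1 rose (Rpl24) with NACET in Akita, and both of these calls were lost without Akita 4, Akita + NACET 2 or Akita + NACET 5, and that of Rplp0 without Akita 3 too. In the interaction 6 were called below and 1 above 0, with 1 below without WT 1 or WT 2, 2 or 3 without Akita 1, Akita 3 or WT + NACET 5, and 11 without Akita + NACET 3. In Akita + NACET vs WT + NACET 8 were lower (median -0.24), with 3 or 4 without Akita + NACET 2, 4 or 5 or WT + NACET 3, 5 or 6. With plain library totals Rpl24 was called with NACET in Akita and Rplp0 was not, and 2 were lower and 1 higher in the last comparison. Whether complex I moved apart from these lists was not tested.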

How the data were processed

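Poly(A) RNA libraries were made by the authors with the TruSeq RNA v2 kit, which does not mark strand. Per the labels, reads were aligned to mm9 with TopHat2 2.1.0 and Bowtie, and the deposited values are raw HTSeq 0.11.2 counts per gene, taken without strand per the study's methods. The 5 summary entries, 1 entry without a name (0.0054% of counts) and 206 ribosomal RNA genes (0.977% on average) were removed. Genes were filtered with filterByExpr, scaled by TMM and tested over all 18 libraries with edgeR 4.0.16 (R 4.3.3), group as the only factor, calling an adjusted p of at most 0.05. The study used DESeq2, here an alternative (1.42.0). Alternatives changed normalization, filter, tool, samples, replicate block, outside-exon share, length and GC trends. Library totals in place of TMM and all-exon lengths were added after seeing the data. Scripts were tested on simulated data. The subunits, roles and lists were chosen with earlier results of these data known. A complex I gene and a ribosomal protein gene are not reported here and enter no count, sum or median of a list. Library values were given for the 6 core genes and, in Akita vs WT, both NACET comparisons within a genotype and the interaction, for the 3 genes called with the largest rise and fall. Mitochondrially encoded subunits, assembly factors and regulators were named where called there, at most 3 a list by smallest p. Outside that rule, those called in Akita + NACET vs WT + NACET were named as well. For complexes II to V and ribosomal proteins counts and medians were given, and only some of the genes called were named. Replicate pairs differed by more than sampling noise (chi-square per degree of freedom 4.70 to 51.7), and each library was counted once. This measure cannot tell separate animals from separate preparations of the same animal. Lengths and positions came from GENCODE vM1, which held 96.1% of gene names. The lowest count of a complex I subunit in any library was 269 (Ndufs5).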

Additional observations from a re-analysis of the deposited data

Results flagged for a closer look

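In 33 groups of 4 to 6 libraries tested, over the summed level and the 10 genes whose library values are given, 2 had a library far from the others, where chance alone gives about 1 in 20. Ndufs3 was 29.2 CPM in Akita 3 against 23.7 to 23.9 in the other Akita libraries, and Ndufb4 was 29.5 CPM in Akita 4 against 35.0 to 35.4.

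The change with NACET differed between Akita and WT, by the interaction term in edgeR's quasi-likelihood fit, for 21 genes. On the log2 scale the difference was -0.77 for Ndufa3, -0.73 for Ndufb4, -0.68 for Ndufv3, -0.64 for Ndufa4 and Ndufa10 and -0.63 for Ndufa1. It was -0.57 for Ndufs6, -0.55 for Ndufb2, -0.54 for Ndufb9, -0.53 for Ndufb11 and Ndufs4, -0.51 for Ndufb3 and -0.50 for Ndufa2. The smallest were -0.49 for Ndufa5, -0.48 for Ndufb5, -0.47 for Ndufb10 and Ndufa7, -0.46 for Ndufa8, -0.45 for Ndufb7, -0.44 for Ndufv1 and -0.37 for Ndufa12. None of the 21 was called with the outside-exon share as covariate, where 17 of all 16183 genes were called.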

How the results depend on the processing

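Counts of complex I genes called depended on the processing, and no call changed direction in any alternative run. In Akita vs WT (1 called) the count was 3 with DESeq2 over all groups, 2 with DESeq2 and 0 with edgeR on the 2 groups alone, 0 with no filter, 0 with the outside-exon share as covariate and 0 with library totals, and 0 to 3 without 1 library. With NACET in Akita (9) it was 14 with DESeq2 over all groups, 1 with edgeR on the 2 groups alone, 3 with no filter, 0 with the covariate and 1 with library totals, and 0 to 20 without 1 library. For Akita + NACET vs WT + NACET (23) it was 15 with edgeR on the 2 groups alone, 0 with the covariate, 10 with the length trend removed and 10 with library totals, and 9 to 27 without 1 library. For the interaction (21) it was 0 with the covariate, 10 with the length trend removed and 2 with library totals, and 7 to 26 without 1 library. Both other comparisons stayed at 0 in all fits. Over all genes, the interaction had 3289 calls in the main fit and 17 with the covariate. It had 3049 with the length trend removed and 4437 with library totals. Library totals also raised such calls from 1237 to 1861 in Akita vs WT and from 1562 to 2550 with NACET in Akita. For Akita + NACET vs WT + NACET they went from 2148 to 2652. With the covariate these comparisons had 0, 0 and 194 calls over all genes. The share of all genes with an unadjusted p under 0.05 was not counted in the covariate fit. The causes were not tested. With a replicate block the counts of complex I genes were 0 in Akita vs WT and 0 with NACET in Akita. They were 14 for Akita + NACET vs WT + NACET and 20 for the interaction. Equal numbers did not pair libraries: correlations of their deviations from the group means ran from -0.332 to 0.345 over 22 pairs, and 0 of 17 libraries correlated best with its own number. Library totals moved the median of all genes to -0.21 in Akita vs WT and to 0.30 in the interaction. Depth limits Ndufa4l2 alone, at 10 to 57 counts.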
